A study of Drosophila melanogaster with 4 samples.

Results

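The localised maternal mRNAs of the Drosophila ovary and the genes that place them were followed here through 10 genes, osk, nos, bcd, gcl, pgc, stau, exu, swa, vls and spir. They were found by their symbols among the 17490 genes with a deposited value, and each had 1 row. The measurement was translating ribosome affinity purification (TRAP), in which a ribosomal protein tagged with GFP is pulled down with the mRNAs that its ribosomes carry. The soma libraries came from ovaries of genotype tj:gal4, UAS RPL10-GFP, in which traffic jam Gal4 is active in the follicle cells and other somatic cells of the ovary. The germline libraries came from genotype Nos:Gal4Vp16, UAS:RPL10-GFP, in which nanos Gal4VP16 is active in germ cells. Each genotype was represented by the ovaries of 100 females, and the 4 libraries fall into 2 per group. All 4 libraries carry the tagged ribosomal protein, the groups differ in driver as well as in cell type, and the age of the females was not given in the sources used here.

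In the egg chamber, nurse cells transcribe these mRNAs and pass them into the oocyte, where microtubule motors, RNA-binding proteins and anchors put each at its own place. osk mRNA is carried to the posterior pole and translated there, and Oskar protein builds the pole plasm, the cytoplasm that later makes primordial germ cells and that gathers nos, pgc and gcl mRNA. bcd mRNA is held at the anterior pole and stays largely silent until the egg is activated. Several of these mRNAs are repressed before they are placed, so their abundance in the ovary and their load on ribosomes need not go together. The question was which of them were low on ribosomes. No RNA from before the pull-down and no pull-down without the tag was analysed here, so the values give levels of ribosome-bound mRNA in FPKM (fragments per kilobase of exon, scaled between libraries) and not the share of each mRNA that was on ribosomes.

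The libraries differed in depth and in rRNA. Reads recovered from the FPKM on genes other than rRNA numbered 16675983 in soma replicate 1 and 615390 in soma replicate 2. They numbered 1164462 and 1283288 in germline replicates 1 and 2. rRNA took 6.34% of the recovered reads of soma replicate 1 and between 56.1% and 74.7% of those of the other libraries. On an exon length of 1 kb, 3 reads were worth 0.0699 FPKM in soma replicate 1 and 2.43 FPKM in soma replicate 2, and 1.02 and 0.827 FPKM in the germline libraries. Counting error in the soma was therefore largest in soma replicate 2.

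All 10 genes were detected in every library, and all 10 were higher in both germline libraries than in both soma libraries, an arrangement that 25.8% of the 8823 genes tested also had. For pgc, vls and spir, 95% Poisson counting intervals of a soma and a germline library overlapped. The germline means were 1.22 to 3.68 times the soma means on the log2(FPKM + 0.1) scale. nos, exu and swa, 3 of the 10, were higher in the germline at an adjusted p under 0.05 by limma, against 3.59% of all genes tested. None of the 10 was called higher in the soma at an adjusted p under 0.05 by limma, where 8.64% of all genes were called. At an unadjusted p under 0.05 by limma, 0 of the 10 were higher in the soma, where 1478 of the 8823 genes were. By limma-voom 0 of the 10 were called in the soma, where 904 of 8449 genes were. Before adjustment 8 of the 10 had p under 0.05 with the germline higher, against 11.0% of all genes. None passed 5-fold with an unadjusted p under 0.05 in either direction, a cut-off passed by 1.08% of all genes in the germline and 9.41% in the soma. The median log2 fold change of soma over germline was -1.17 for the 10 genes and 0.04 for all genes tested.

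**Figure D1:**
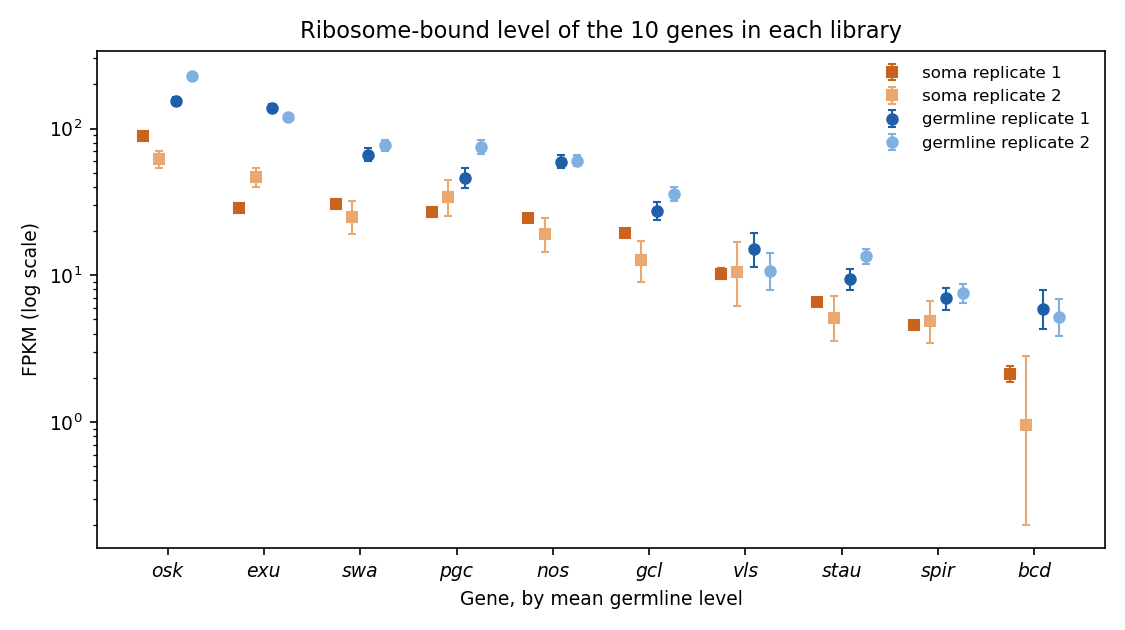
Ribosome-bound level of the 10 genes in FPKM on a log axis, ordered by mean germline level, with squares for the 2 soma libraries and circles for the 2 germline libraries. Bars are 95% exact Poisson intervals of the recovered reads and cover counting error only; osk is the highest and bcd the lowest gene in each of the 4 libraries, from 154.7 and 228.3 FPKM for osk to 5.90 and 5.22 FPKM for bcd in the germline.

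The posterior determinant osk encodes the protein that nucleates the pole plasm. The gene lies at chr3R:8935126-8938395 on the plus strand (dm6 coordinates), with 2 annotated transcripts and a 3′ UTR of 1028 bases. Its level was 89.6 and 61.6 FPKM in soma replicates 1 and 2, and 154.7 and 228.3 FPKM in germline replicates 1 and 2. It stood at the 97.3 and 98.4 percentile of the genes above 0 in the germline libraries, and it was the highest of the 10 genes in each of the 4 libraries. An mRNA known for translation at one pole of the oocyte was thus near the top of the germline libraries. In soma replicates 1 and 2 osk also ranked high, at the 96.5 and 91.8 percentile of the genes above 0. The groups did not overlap, and the germline was 2.53 times higher with a log2 fold change of -1.34 (SE 0.34, limma adjusted p = 0.051). The adjusted p missed the threshold.

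nos, at chr3R:19157238-19160202 on the plus strand, encodes a translational repressor that patterns the abdomen and maintains germline stem cells. The soma libraries had 24.4 and 19.0 FPKM and the germline libraries 59.5 and 60.3 FPKM. The 2 germline libraries were almost equal and both stood well above the soma. The log2 fold change was -1.47 (SE 0.27, limma adjusted p = 0.017). Only the germline libraries carry the nanos Gal4VP16 driver, and whether reads of the driver mRNA add to the nos value was not tested.

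gcl and pgc act in the primordial germ cells. gcl encodes an adaptor of a ubiquitin ligase needed for germ cell formation, and lies at chr2R:8724258-8728999 on the plus strand. Its level was 19.5 and 12.6 FPKM in the soma and 27.4 and 35.9 FPKM in the germline, with a log2 fold change of -0.99 (SE 0.33, adjusted p = 0.10). pgc encodes a short peptide that silences transcription in pole cells, from a coding sequence of 213 bases, at chr2R:22330200-22332813 on the plus strand. It had 27.1 and 34.1 FPKM in the soma and 46.3 and 74.4 FPKM in the germline, and its germline libraries were the more spread. The log2 fold change was -0.95 (SE 0.32, adjusted p = 0.11). For both genes the groups did not overlap but the difference was not called. The counting interval of pgc in soma replicate 2, 25.4 to 44.9 FPKM, overlapped that in germline replicate 1, 39.5 to 54.0 FPKM.

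The anterior determinant bcd encodes a homeodomain protein that activates head and thorax genes in the embryo. It lies at chr3R:6755842-6759466 on the minus strand and shares no exon base with another gene. Its level was 2.13 and 0.959 FPKM in the soma and 5.90 and 5.22 FPKM in the germline, the lowest of the 10 genes in each library. In the germline libraries it stood at the 41.9 and 36.4 percentile of the genes above 0. The values rest on few reads, 232 and 3 in the soma and 44 and 48 in the germline. The 3 reads of soma replicate 2 allow 0.198 to 2.80 FPKM (95% exact Poisson interval), below the intervals of 4.29 to 7.93 and 3.85 to 6.92 FPKM in the germline libraries. The pooled germline rate was 2.59 times that of soma replicate 1, with a counting interval of 2.01 to 3.31, and 5.76 times that of soma replicate 2, with an interval of 1.91 to 28.4. The log2 fold change over all 4 libraries was -1.88 (SE 0.62, adjusted p = 0.10), the most negative of the 10 with the widest standard error.

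The 3 genes that place these mRNAs came next. exu encodes a protein that nurse cells need for bcd mRNA to reach the anterior pole. Its gene is at chr2R:20667427-20671083 on the minus strand. It had 28.5 and 46.6 FPKM in the soma and 138.8 and 119.4 FPKM in the germline. It was the second highest of the 10 genes in the germline, with a log2 fold change of -1.82 (SE 0.32, adjusted p = 0.016). swa encodes a protein required for anterior bcd mRNA, and lies at chrX:6363418-6365708 on the minus strand, with a single annotated transcript. It had 30.4 and 24.9 FPKM in the soma and 66.5 and 76.9 FPKM in the germline (log2 fold change -1.37, SE 0.26, adjusted p = 0.021). Both were called, and in both the groups were well apart. stau, which encodes a double-stranded RNA-binding protein that acts on both osk and bcd mRNA, lies at chr2R:18117896-18125779 on the minus strand. It had 6.57 and 5.14 FPKM in the soma and 9.38 and 13.5 FPKM in the germline, and was not called (log2 fold change -0.94, SE 0.39, adjusted p = 0.17).

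vls and spir were the closest to equal between the groups. vls encodes Valois, a WD-repeat protein of the pole plasm that works with the methyltransferase Capsuleen, and lies at chr2L:20064261-20065679 on the minus strand. Its soma libraries had 10.3 and 10.5 FPKM and its germline libraries 15.1 and 10.7 FPKM. Germline replicate 2 was almost level with the soma, and the log2 fold change was -0.29 (SE 0.34, adjusted p = 0.61). spir encodes an actin nucleator that organises the actin mesh and thereby the microtubules of the oocyte, and lies at chr2L:20311219-20348386 on the plus strand with 10 annotated transcripts. It had 4.56 and 4.86 FPKM in the soma and 6.96 and 7.59 FPKM in the germline (log2 fold change -0.61, SE 0.41, adjusted p = 0.38). The counting interval of vls in soma replicate 2, 6.13 to 16.9 FPKM, overlapped that in germline replicate 2, 7.99 to 14.1 FPKM. That of spir in soma replicate 2, 3.46 to 6.65 FPKM, overlapped that in germline replicate 1, 5.83 to 8.25 FPKM. Neither gene was called, and these libraries do not show that either gene is at the same level in both groups.

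**Figure D2:**
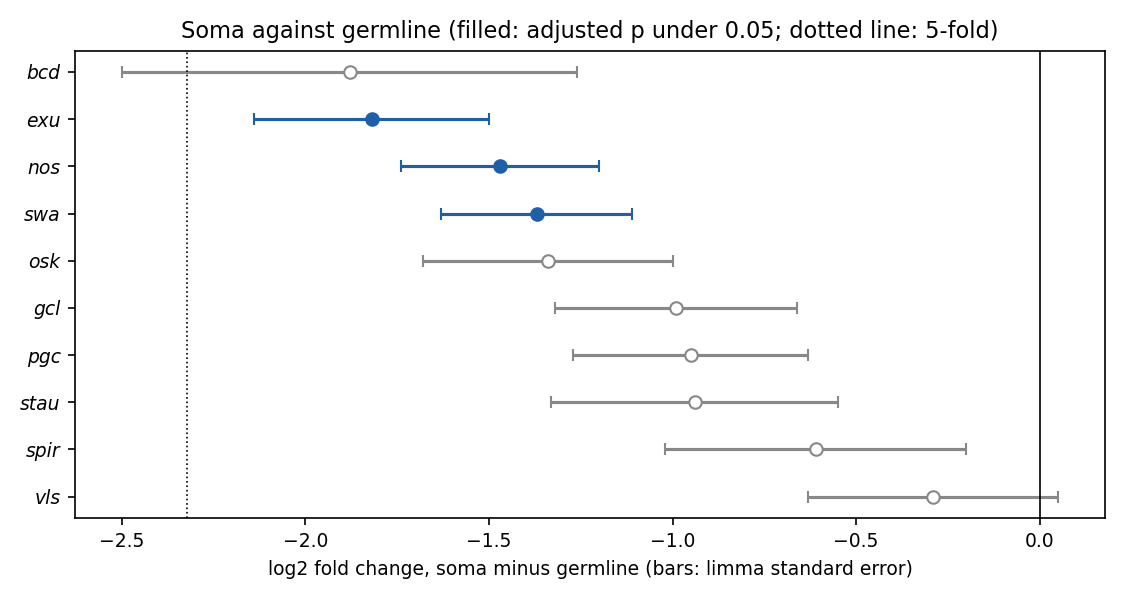
Log2 fold change of soma over germline for the 10 genes, with limma standard errors as bars, filled where the adjusted p over 8823 genes was under 0.05. All 10 points are below 0, from -1.88 for bcd to -0.29 for vls, and the 3 filled genes are exu, nos and swa.

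The calls rest on all 4 libraries. With any 1 of them left out, 0 of the 10 genes passed the adjusted threshold by limma, and 3 or 4 of the 10 had an unadjusted p under 0.05 with the germline higher, against 4.71% to 12.1% of all genes. Over all genes 0 to 11 were then called higher in the germline. The fold changes kept their sign in each of these fits. With libraries rescaled to a common total without rRNA only exu of the 10 was called, and by limma's eBayes without a trend 0 were, with 5 at p under 0.05 before adjustment, against 7.41% of all genes. For single genes an exact permutation test of 2 against 2 libraries cannot give a 2-sided p below 0.333. The authors describe the TRAP replicates as biological replicates. The labels do not say whether the libraries of a group come from separate cages or dissections, and the p-values then measure only the spread between these libraries.

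The germline level is the closest measure here of how much of each mRNA was on germline ribosomes. The order of the means was osk 191 FPKM, exu 129, swa 71.7, pgc 60.4, nos 59.9, gcl 31.7, vls 12.9, stau 11.4, spir 7.27 and bcd 5.56. pgc and nos changed places between the 2 germline libraries, and so did vls and stau. swa and pgc kept their order but their ranges overlapped. spir was above bcd by 1.18 and 1.45 times in the 2 libraries, and their counting intervals overlapped in both. osk exceeded bcd by 26.2 and 43.7 times, and nos exceeded bcd by 10.1 and 11.6 times. Of the 5 mRNAs that are themselves localised, bcd was thus the one with a low ribosome-bound level, and osk, nos, pgc and gcl all stood at or above the 82.8 percentile of the genes above 0 in both germline libraries. In the soma libraries osk, nos, pgc and gcl stood between the 62.1 percentile (gcl, soma replicate 2) and the 96.5 percentile (osk, soma replicate 1). A high rank was thus not confined to the germline libraries.

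All 5 localised mRNAs had a longest annotated 3′ UTR above the median of 289 bases over 7908 protein-coding genes tested. The 3′ UTR carries the localisation signals known for osk, nos and bcd. The lengths were 1028 bases in osk, 880 in nos, 834 in bcd, 524 in gcl and 401 in pgc. Among the genes that act on these mRNAs it ranged from 125 bases in vls to 3236 in spir. The orders by length and by level were different, since bcd with 834 bases had the lowest level and pgc with 401 bases a high one.

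Some of the FPKM rest on exon bases that 2 genes share. pgc shared 46.9% of its exon bases with T3dh on the other strand, nos 15.9% with CG11779 and Nsun5, exu 12.1% with galla-1, vls 9.24% with lok, osk 5.65% with the antisense RNA asRNA:CR44020 and gcl 1.43% with CG30356. bcd, stau, swa and spir shared none. It is not given in the sources used here whether the counting used strand or what it did with reads on shared bases. Of 457 protein-coding genes with 90% or more of their exon bases shared, 95% were at 0 in all 4 libraries, against 35.0% of 9287 genes with none shared and 13.4% of 3701 with a share above 0 and under 50%. If shared bases are left out of the length and all reads are kept, the germline mean of pgc becomes 114 in place of 60.4 per kilobase, above swa at 71.7, and that of nos 71.3 in place of 59.9. These values hold only if no read on the shared bases was counted, and are otherwise upper limits. This reading was added after seeing the data. lok, at 27.3 to 66.7 FPKM, was higher than vls in each library, so that reads of lok on the shared bases cannot be told apart from reads of vls without strand. T3dh, at 0.174 to 1.30 FPKM, was far below pgc. For nos, Nsun5 was at 8.54 to 22.7 FPKM over the libraries and above nos only in soma replicate 2, at 22.7 against 19.0 FPKM. CG11779 was at 7.98 to 11.0 FPKM. Reads of these 2 genes on the shared bases likewise cannot be told apart from reads of nos without strand.

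**Figure D3:**
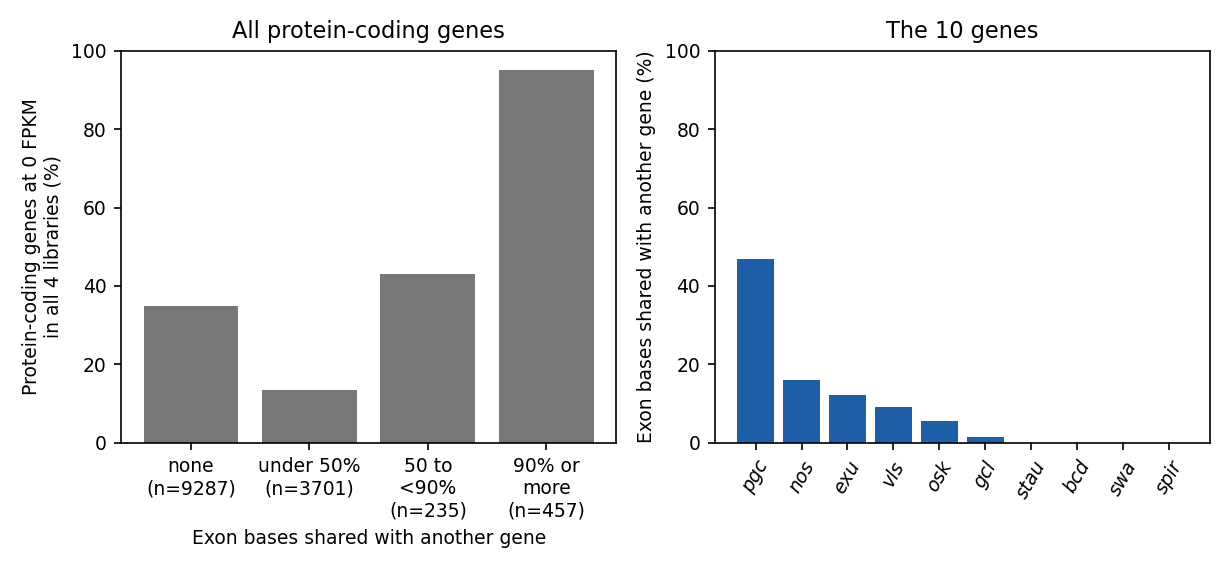
Left, percent of protein-coding genes at 0 FPKM in all 4 libraries, by the share of their exon bases that another gene of the table also covers; right, that share for the 10 genes. The left bars are 35.0, 13.4, 43.0 and 95%, and on the right pgc has the highest share, 46.9%, while stau, bcd, swa and spir have none.

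The level in the soma libraries was 27.8% to 80.6% of the germline level over the 10 genes, with a median of 45.1%. The germ cell list had a soma level of 16.8% to 91.8% and a median of 41.0% over 9 genes (zpg, otu, ovo, AGO3, krimp, tej, rhi, del and cuff), of which 4 were called higher in the germline. The lowest value was that of cuff, from 40 and 0 reads in the soma and 9 in each germline library. The next lowest, AGO3, was at 28.8%. In the other direction, 12 follicle cell markers, among them traffic jam and the vitelline membrane gene Vm26Aa, had a germline level of 3.08% to 13.2% of the soma level, with a median of 6.17%, and 10 were called higher in the soma. Markers of the germ cell list were at 89.3 to 100 FPKM in sum in the soma libraries and 216 to 219 FPKM in the germline libraries, so germ cell mRNA was present in both soma pull-downs. The part of this in the fold changes of the 10 genes was not tested. Marker sums for muscle sheath ranged from 1.78 to 16.8 FPKM and differed as much within groups as between them, and markers of haemocytes and fat body were at 0 in every library except soma replicate 1, at up to 0.144 FPKM in sum. On an exon length of 1 kb, 3 reads were worth 0.827 FPKM or more in the other libraries, so a 0 there does not show absence. In pull-downs of whole ovaries, more cells of a type and more ribosome-bound mRNA per cell cannot be told apart.

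**Figure D4:**
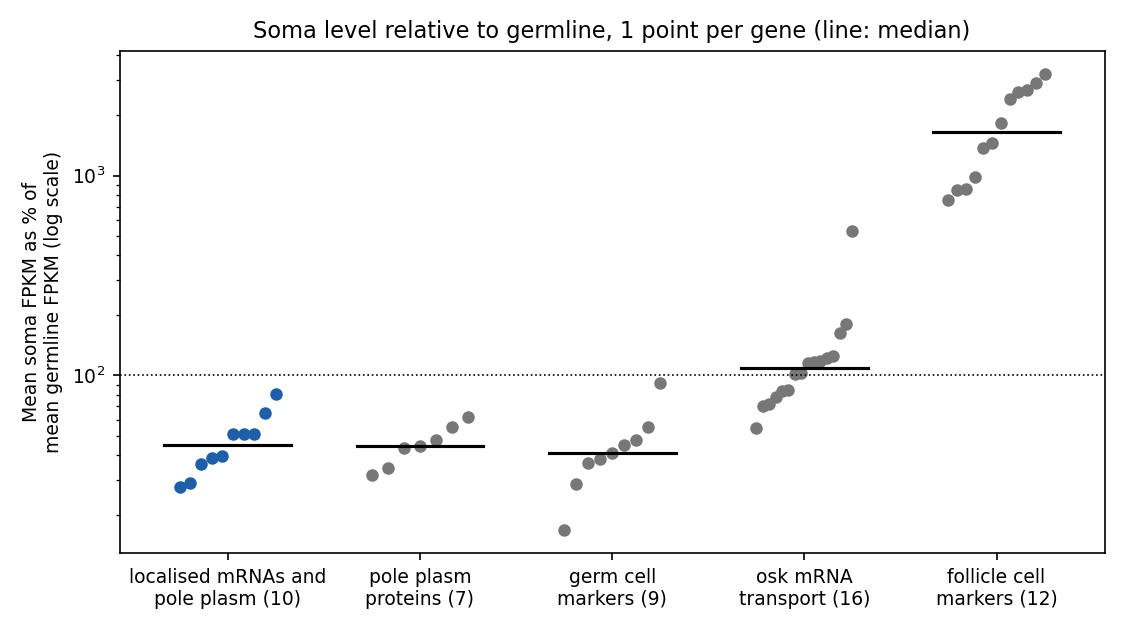
Mean soma FPKM as a percent of mean germline FPKM on a log axis, 1 point per gene and a line at each list's median, for the 10 genes and 4 lists. The 10 genes run from 27.8% to 80.6% with a median of 45.1%, the germ cell markers have a median of 41.0% and the osk mRNA transport genes a median of 109%; the dotted line is 100%.

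Other genes of mRNA localisation were counted by role. Of 44 genes in 5 lists, 41 were tested, 9 were higher in the germline and 1 was higher in the soma at an adjusted p under 0.05, with a median log2 fold change of -0.46. Against the shares of all genes given above, the count is 9 of 41 where 3.59% of all genes were called. With any 1 library left out, 0 of the 41 were called in either direction by limma, while 8 to 13 had an unadjusted p under 0.05 with the germline higher and 1 to 3 with the soma higher.

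The list called pole plasm proteins also holds a repressor of osk translation, bru1, and shares krimp with the germ cell list. Of its 7 genes tested, aub and bru1 were called higher in the germline by limma and none in the soma. All 7 had both germline libraries above both soma libraries, as 25.8% of all genes tested did. bru1, the Bruno repressor of osk translation, had 21.7 and 22.8 FPKM in the soma and 66.9 and 73.9 FPKM in the germline (log2 fold change -1.66, SE 0.25, adjusted p = 0.0098). aub, a Piwi-family protein of the germ granules, had 11.2 and 15.3 FPKM in the soma and 43.6 and 33.2 FPKM in the germline (-1.53, SE 0.31, adjusted p = 0.024). tud, whose protein scaffolds the polar granules, had 23.6 FPKM in each soma library and 37.8 and 38.6 FPKM in the germline, and missed the threshold (-0.69, SE 0.25, adjusted p = 0.13). vas was not analysed here.

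The transport machinery of osk mRNA was closer to equal between the groups in its median; the difference between lists was not tested. Of its 16 genes, which include the exon junction proteins mago, tsu, btz and eIF4A3, the motor Khc and the actin nucleator capu, 0 were called higher in the germline, where 1 had p under 0.05 before adjustment, and 1 was called in the soma, where 2 had p under 0.05 before adjustment, with a median log2 fold change of 0.12. That gene was Tm1, with 50.3 and 62.3 FPKM in the soma and 9.96 and 11.5 FPKM in the germline (log2 fold change 2.38, SE 0.28, adjusted p = 0.0043). Tm1 encodes the conventional actin-binding tropomyosins as well as the isoform that links kinesin to osk mRNA, and a value per gene does not separate them.

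Of 6 genes that act on bcd mRNA, 3 were called higher in the germline. They were the cytoplasmic poly(A) polymerase wisp (27.2 and 22.9 FPKM in the soma and 80.6 and 89.2 FPKM in the germline, log2 fold change -1.76, adjusted p = 0.0089), the maternal γ-tubulin gammaTub37C (11.4 and 13.5 FPKM in the soma and 77.3 and 49.97 FPKM in the germline, -2.32, adjusted p = 0.0067) and the γ-tubulin complex gene Grip75 (6.67 and 7.96 FPKM in the soma and 35.9 and 26.9 FPKM in the germline, -2.08, adjusted p = 0.0098). The other 3, the ESCRT-II genes Vps36, Vps25 and lsn, were not called.

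Among 5 other localised mRNAs only CycB, the mitotic cyclin whose mRNA is enriched in the pole plasm, was called by limma. It had 63.4 and 44.5 FPKM in the soma and 123.2 and 173.6 FPKM in the germline (log2 fold change -1.46, SE 0.32, adjusted p = 0.032). grk, the TGF-α-like signal that the oocyte sends to follicle cells, was below bcd in each germline library, with 2.18 and 1.44 FPKM from 11 and 9 reads. In the soma it had 2.09 and 0.944 FPKM (-0.31, SE 0.76, adjusted p = 0.82). K10, chosen after its values were seen, lay the other way. It had 93.6 and 86.1 FPKM in the soma and 62.0 and 58.0 FPKM in the germline. It was not called by limma (0.58, SE 0.25, adjusted p = 0.20). Whether reads of the tagged transgene, which every library carries, add to the K10 value was not tested. The translational control list gave 3 calls of 7 tested, all higher in the germline. me31B and tral, which encode partners in a repressor complex on osk mRNA and in processing bodies, were at 187.5 and 277.8 FPKM and at 134.7 and 162.2 FPKM in the soma. In the germline me31B had 1137 and 971 FPKM and tral 756 and 582 FPKM. Their log2 fold changes were -2.20 (SE 0.46, adjusted p = 0.027) and -2.17 (SE 0.38, adjusted p = 0.015). Both exceeded osk in each germline library. Fmr1, an RNA-binding repressor, was called at -1.05 (SE 0.27, adjusted p = 0.049), with 29.2 and 30.3 FPKM in the soma and 70.4 and 54.3 FPKM in the germline.

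The genes nearest to osk, nos and bcd over the 4 libraries were taken by the mean absolute difference of log2(FPKM + 0.1), as a description. For osk they were Capr at 0.18, Jafrac1 at 0.24 and Gapdh1 at 0.28. For nos they were Iswi at 0.10, CG2982 at 0.13 and piwi at 0.14. For bcd they were Oseg1 at 0.16, CG12702 at 0.18 and Nufip at 0.23. The nearest neighbours of osk thus include Gapdh1, a glycolytic enzyme that cells in general use, at 199.1 and 194.9 FPKM in the germline, and piwi, which encodes a Piwi protein of germ cells and follicle cells, stood close to nos.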

How the data were processed

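The authors deposited FPKM values per gene for 4 TRAP libraries, in which a comma stands for the decimal point. The labels' processing notes name cutadapt, FastQC, HISAT2 and dm6; the counting tool, annotation and use of strand are not given in the sources used here. Identifiers of 17216 of 17490 genes matched Ensembl release 115 (BDGP6.54, dm6 coordinates), which gave exon lengths and positions. FPKM times exon length, divided by 1 constant per library, gave whole reads (within 0.03) for 95.9% of the 10518 genes above 0. Intervals on these reads are at 95% and cover counting error only.

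Soma and germline were compared with limma 3.58.1 (R 4.3.3; lmFit, eBayes with trend) on log2(FPKM + 0.1). The 8823 genes whose 4 libraries averaged 0.1 FPKM or more were tested, with Benjamini-Hochberg adjustment over all of them. Fold changes on this scale understate those of low genes. Calls were made at an adjusted p under 0.05, or at more than 5-fold with an unadjusted p under 0.05. On simulated data with known changes, the fit gave median fold changes near the simulated size but left many of the changed genes uncalled at the adjusted threshold. The simulation assumed a spread between replicates that was not estimated from these libraries, and the number called changed with the random draw. Tables and intervals were made in Python 3.11.15 (scipy 1.17.1, pandas 2.3.3).

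The members and lists were chosen with earlier results of these data known. Named were all 10 genes, each called gene of the other localisation lists, grk, vas, aub, tud and CycB, and the 3 nearest genes of osk, nos and bcd. Genes named beyond these were chosen after their values were seen. The alternatives were pseudocounts of 1 and 0.01 FPKM, no filter beyond values above 0, a filter at a mean of 1 FPKM, rescaling to a common total without rRNA, quantile normalization, eBayes without trend, a replicate block, each library left out, and limma-voom on the recovered reads.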

Additional observations from a re-analysis of the deposited data

How the results depend on the processing

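The fold change of soma over germline was negative in all 130 pairings of the 10 genes with 13 alternatives. The number of the 10 called higher in the germline, 3 with all libraries, was 1 (exu) with libraries rescaled to a common total without rRNA, 0 by eBayes without a trend and 0 to 0 with each library left out. It was 5 by limma-voom on the recovered reads, which called osk and bcd as well; osk was also called with a pseudocount of 1 FPKM and with a minimum mean of 1 FPKM. By eBayes without a trend 5 of the 10 had an unadjusted p under 0.05. The number past 5-fold in the germline, 0 with all libraries, was 2 with the common total, 1 by quantile normalization and 0 to 1 with each library left out, the 1 being bcd without soma replicate 1. Of the 41 other localisation genes, 9 were called in the germline, but 4 with the common total, 0 by eBayes without a trend and 0 to 0 with each library left out; the 1 called in the soma, Tm1, became 0 with the common total and 0 to 0 with each library left out. With a library left out, 1 group has a single sample that is assumed to vary like the other group.

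Rescaling to the common total moved the median log2 fold change of all genes by -0.49, to -0.45, and that of the 10 genes to -1.68; relative to all genes this was -1.23, against -1.21 before. Quantile normalization moved the median of all genes by -0.21. In both, all 10 genes stayed below the median of all genes. The median soma level of the 10 genes, 45.1% of the germline level, was 32.2% with the common total. Over all genes, the calls in the soma and the germline were 762 and 317, but 204 and 70 with the common total, 451 and 37 by eBayes without a trend, and 904 and 650 by limma-voom. They were 446 and 11 without soma replicate 1, 564 and 6 without soma replicate 2, and 0 and 0 without either germline replicate. The causes were not tested.

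The deviations of samples that share a replicate number had a correlation of -0.07 across genes. The labels tie no soma library to a germline library, and whether samples with the same number share a batch was not tested. With the replicate block, 4 of the 10 genes, osk among them, were called higher in the germline by limma. Over all genes 968 and 581 were then called in the soma and the germline. Of the 10 genes, bcd is the one most limited by depth, with 3 reads in soma replicate 2.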

Other observations

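cup and Bicc, which encode repressors of osk translation, were not covered by the test. cup, chosen after its values were seen, was listed at 0 in all 4 libraries, and 100% of its exon bases are shared with another gene of the table. Bicc had 18 reads in soma replicate 1, at 0.0922 FPKM, and 0 in the other libraries, with 94.8% of its exon bases shared. Both lie in the class of protein-coding genes of which 95% were at 0, so a value of 0 there cannot be read as absence from ribosomes, and how reads on shared bases were counted was not tested.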
